A study of Mus musculus with 4 samples.

Results

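The neomycin resistance transcript was followed in single cells of mouse mammary tumours. It is the feature named NeomycinResistanceGene, 1 of 31054 features in the count tables and the only 1 without an Ensembl identifier. It was picked out by that name, with earlier results of these data known. Its raw counts of unique molecular identifiers (UMIs, which mark single captured RNA molecules) were read in all 4 libraries. The gene comes from bacteria and has no place in the mouse genome, so it has no chromosome, exon or coordinates to give.

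The neomycin resistance gene codes for an aminoglycoside phosphotransferase, an enzyme that inactivates neomycin and the related drug G418. It is built into vectors and knockout alleles so that cells holding the construct survive the drug, and a cell with its RNA is a cell that carries the construct or has taken up its RNA from elsewhere. In such cassettes the gene is often placed behind a promoter that is active in most cells, such as that of the phosphoglycerate kinase gene Pgk1. The labels do not say which construct, promoter or cells carried the gene here, nor whether the tumour cells came from 1 clone.

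The tumours belonged to models of triple-negative breast cancer, a breast cancer without the usual hormone receptor and HER2 targets, and the series asked how they respond to immune checkpoint inhibitors. T11-Apobec cells were grown in Balbc females and KPB25Luv cells in FVB/NJ females, in both cases in mammary gland number 4 to a diameter of 5 mm. Treated mice then received an antibody to PD1 at 10 mg/kg and an antibody to CTLA4 at 100 µg biweekly, and tumours were taken after 7 days; untreated mice received neither. Each of the 4 groups (T11-Apobec treated, T11-Apobec untreated, KPB25Luv treated and KPB25Luv untreated) was 1 library, with no replicate. The labels do not give the number of animals in a library, so each comparison below is of 2 libraries or of classes of cells within 1. No p-value was computed, and all 95% intervals (exact Poisson for levels, exact Clopper-Pearson for shares, exact conditional for ratios) cover counting error only.

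The libraries held 5509 to 11304 barcodes and 30369476 to 98475778 UMIs. After removal of barcodes with few genes, many mitochondrial UMIs or high doublet scores, 5830 treated and 9469 untreated T11-Apobec cells and 5051 treated and 6140 untreated KPB25Luv cells were kept. Pairs of libraries shared between 34 and 125 cell barcodes.

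The transcript was found in both T11-Apobec libraries and in neither KPB25Luv library. Over all barcodes it had 1178 UMIs in 398 barcodes of the treated T11-Apobec library and 3449 UMIs in 1694 barcodes of the untreated one. In KPB25Luv it had 0 UMIs in both libraries, which allows up to 0.0988 CPM (UMIs scaled to a total of 1000000) with treatment and 0.0342 CPM without. Of the 125 barcodes that the untreated libraries of the models shared, 21 had the transcript in T11-Apobec and 0 had it in KPB25Luv. The KPB25Luv libraries thus gave a blank at this depth. Over kept cells its level was 25.5 CPM (24.0 to 27.0) in the treated and 35.8 CPM (34.5 to 37.1) in the untreated T11-Apobec library, in 6.33% and 15.2% of cells.

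Within T11-Apobec most UMIs of the transcript lay in tumour-class cells. Cells were put into classes by the number of fixed marker genes with a UMI, without use of the transcript itself. The tumour class held cells with at least 4 of 12 mesenchymal genes and too few markers of any other class to join it. Prrx1, Twist1 and Sparc are among the 12. These 12 genes are also active in fibroblasts, pericytes and endothelial cells, and cells of those types with few of their own markers could fall in the class. In the treated library the class summed to 2633 CPM for the tumour markers against 70.3 CPM for 6 pan-immune markers and 27.5 CPM for 6 epithelial markers. Without treatment the sums were 3668, 18.6 and 53.1 CPM. The tumour marker sum was raised by the rule itself, which asked for these genes. Fibroblast markers summed to 378 CPM with and 577 CPM without treatment, and pericyte markers to 48.4 and 91.3 CPM. T cell markers summed to 51.6 and 96.6 CPM, of which Trbc2 made up 33.8 and 95.7 CPM. Among the epithelial markers Krt8 was at 16.8 and 30.8 CPM and Krt18 at 10.5 and 21.3 CPM. The tumour markers were not particular to the class. In the untreated library they summed to 10743 CPM in endothelial, 12470 CPM in pericyte and 12307 CPM in fibroblast cells, all above the tumour class.

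In the treated library 956 of the 1100 UMIs in kept cells, 86.9%, lay in 609 tumour-class cells. Barcodes with markers of more than 1 class held a further 126, 11.5%. In the untreated library 2865 of 3009 UMIs, 95.2%, lay in 4968 tumour-class cells. The level in the class was 61.1 CPM (57.3 to 65.2) with treatment and 42.9 CPM (41.3 to 44.5) without. By UMIs the transcript ranked 2125 of 15436 detected features in treated and 2998 of 17482 in untreated tumour-class cells.

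Immune cells, whose droplets free RNA from other cells can reach, had few UMIs of the transcript. All immune classes together had 8 UMIs in 4581 treated cells, 0.372 CPM (0.161 to 0.733), and 13 UMIs in 3219 untreated cells, 1.11 CPM (0.591 to 1.90). No immune barcode had more than 1 UMI. The treated UMIs were 4 in 2852 T cells, 3 in 662 macrophages and monocytes and 1 in 715 B lineage cells. All 13 untreated UMIs were in 2369 macrophages and monocytes, and 0 were in 351 T cells, which allows up to 4.23 CPM there. Natural killer cells, neutrophils and plasmacytoid dendritic cells had 0 UMIs in both libraries, but in small classes 0 UMIs allowed much: 97.4 CPM in treated and 26.8 CPM in untreated neutrophils, and 15.9 and 74.5 CPM in plasmacytoid dendritic cells.

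The tumour class stood above the immune classes by 155-fold (83.1 to 382) in the treated library and by 37.2-fold (22.6 to 72.6) in the untreated one. Ratios that large were rare. Of 13857 measured features in the treated library 32.3% were at least 1.5-fold higher in the tumour class than in immune cells, and 74 of them, 0.534%, had a larger ratio than the neomycin transcript. Without treatment 38% of 14429 features were at least 1.5-fold higher and 170, 1.18%, had a larger ratio.

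The share of cells with a UMI followed the same order, but it also moves with depth. In the treated library 50.1% of tumour-class cells and 0.175% of immune cells had a UMI, at median depths of 25160 and 3383 UMIs. Without treatment the shares were 27.9% and 0.404%, at median depths of 12366 and 3467 UMIs. With each cell thinned to 1000 UMIs the shares were 4.93% and 0.0448% in the treated and 4.55% and 0.135% in the untreated library.

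Cdkn2a, which codes for cell cycle inhibitors and was abundant in T11-Apobec tumour cells, served as a second tumour transcript. It stood at 1669 CPM in treated and 1514 CPM in untreated tumour-class cells, and at 38.5 and 58.3 CPM in immune cells. The neomycin UMIs were also counted per 100 Cdkn2a UMIs. Whether RNA reaching immune droplets keeps the ratio of the tumour class was not tested. In the treated library there were 3.66 (3.43 to 3.91) in the tumour class and 0.967 (0.416 to 1.92) in immune cells, fewer than in the tumour class. In the untreated library there were 2.83 (2.73 to 2.94) and 1.90 (1.01 to 3.28), intervals that overlap.

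**Figure D1:**
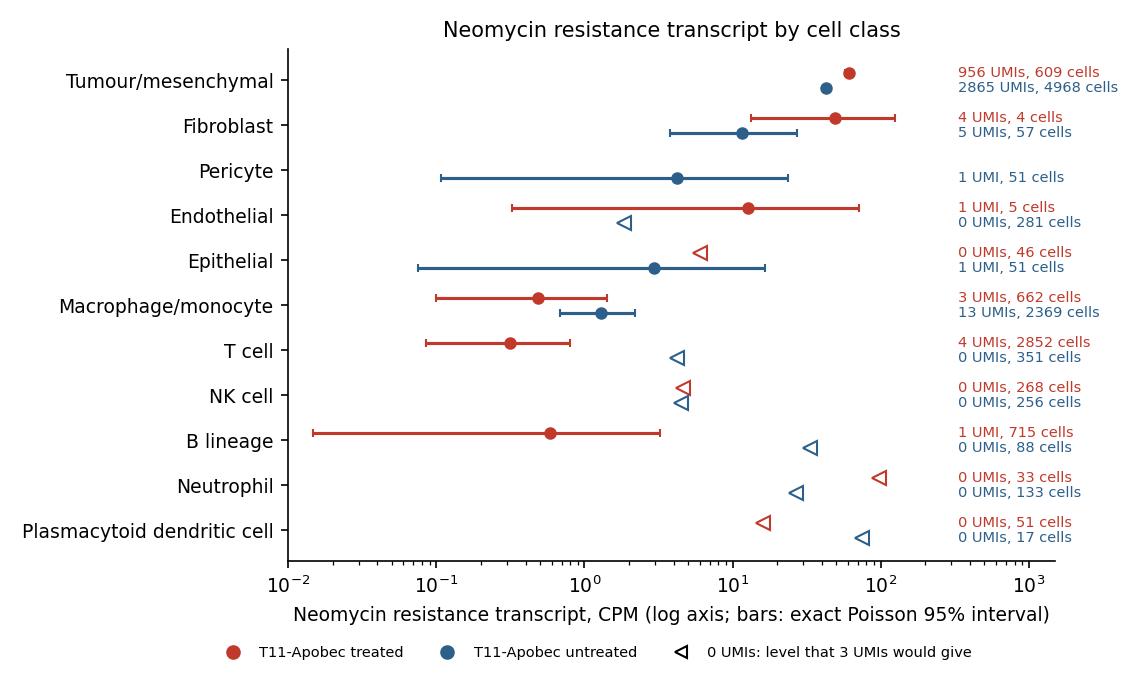
Level of the neomycin resistance transcript (CPM, log axis) in cell classes of the T11-Apobec libraries; points are summed UMIs over the class total, bars exact Poisson 95% intervals, and open triangles mark classes with 0 UMIs at the level that 3 UMIs would give. The tumour class lies at 61.1 CPM (treated) and 42.9 CPM (untreated), and every immune class with a UMI lies below 2 CPM; the 5 untreated conventional dendritic cells are not drawn.

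Endothelial, pericyte, fibroblast and epithelial cells together held 7 UMIs in 440 untreated cells, 2.66 CPM (1.07 to 5.49), and 5 UMIs in 55 treated cells, 7.57 CPM (2.46 to 17.7). The 281 untreated endothelial cells, which line blood vessels, had 0 UMIs, so their level was at least 23.2-fold lower than in tumour-class cells. The 46 treated epithelial cells had 0 UMIs, 10.2-fold below tumour-class cells at the level of 3 UMIs and at least 8.27-fold by the interval. The 51 untreated epithelial cells had 1 UMI, 2.97 CPM (0.0752 to 16.5). The 51 untreated pericytes, which wrap small vessels, had 1 UMI, 4.24 CPM (0.107 to 23.6).

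In each library the fibroblast class had the highest level of these. The 57 untreated cells of the fibroblast class had 5 UMIs, 1 in each of 5 cells, which gave 11.7 CPM (3.78 to 27.2), a level 3.34-fold (1.57 to 11.3) below the tumour class. Cdkn2a was at 898 CPM in the same cells, against 37.5 CPM in endothelial cells. The 4 treated fibroblast-class cells had 4 UMIs, all in 1 cell, with Cdkn2a at 2196 CPM. Tumour and fibroblast markers overlap, and the part of tumour cells in these values was not tested. With a stricter marker rule the 4 stromal and epithelial classes of the untreated library stood at 0.536 CPM (0.0136 to 2.99) in 308 cells, and with the barcodes of high doublet score left in they stood at 6.77 CPM (4.24 to 10.3) in 484 cells.

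Features whose level over classes was most like that of the neomycin transcript were sought among 13353 features over 16 class-by-library points with at least 50 cells each. The points share 2 libraries, and 2 of them are tumour classes that stand apart from the rest, so the correlation describes a contrast of tumour with other cells. Pearson's r on log2(CPM + 10) was highest for Rbp2, a retinol-binding protein of the cell, at 0.98. It was 0.98 for Cavin4, a protein of caveolae, and 0.98 for Aspa, the enzyme aspartoacylase. Sox2, a transcription factor of stem cells, the growth factor Artn and the homeobox gene Hoxc5 each had an r of 0.97. All 6 were low in level, at 10.4 to 28.1 CPM in treated and 6.42 to 19.8 CPM in untreated tumour-class cells. With log2(CPM + 1) in its place, 3 of the 6 were among the leading 6. Cdkn2a had an r of 0.91, Car9, a carbonic anhydrase induced by low oxygen, 0.90, and Pgk1 0.65. Apobec3, a cytidine deaminase, had an r of -0.06; the labels do not say which Apobec gene the name of the model refers to.

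Between the libraries, the level in tumour-class cells was higher with treatment, by less than 1.5-fold. The treated over untreated ratio was 1.43-fold (1.32 to 1.54), a log2 ratio of 0.51 (0.41 to 0.62). In the same comparison 11.2% of 13880 measured features were at least 1.5-fold higher and 11.2% at least 1.5-fold lower, and the median log2 ratio was -0.06. Over all kept cells the direction was the opposite, with a log2 ratio of -0.49 (-0.59 to -0.39), since tumour-class cells were 609 of 5830 treated and 4968 of 9469 untreated cells.

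Cells were also thinned to a fixed number of UMIs, which left fewer UMIs of the transcript. Thinned to 3000 UMIs a cell the ratio was 0.27 (-0.04 to 0.55) on the log2 scale, and thinned to 1000 UMIs 0.17 (-0.40 to 0.67). It was not distinguishable from 0 at those depths, nor from the 0.51 of all UMIs, which both intervals include. As a mean over cells of the per-cell share it was 0.46. By quartiles of cells ranked by depth within each library, it was 0.78, -0.02, 0.42 and 0.75 from the shallowest to the deepest quartile. These quartiles are not matched in depth between the libraries. In the treated tumour class the pan-immune markers were at 70.3 CPM against 18.6 CPM in the untreated one, and all 6 of them were at least 1.5-fold higher; their part in the ratio was not tested. With 1 library a group, treatment and library cannot be told apart.

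Among tumour-class cells the transcript was unevenly spread. In the treated library 49.9% of cells had 0 UMIs, 22.5% had 1, and 57 cells, 9.36%, had 5 or more. Of untreated cells 72.1% had 0, 16.04% had 1, and 130 cells, 2.62%, had 5 or more. The 57 treated cells held 55.3% of the UMIs of the class and the 130 untreated cells 32.3%. The 10% of cells with the most UMIs held 57.0% of them with treatment and 65.8% without. The highest cell of the treated class had 43 UMIs among 18345, or 2344 CPM, and that of the untreated class 21 among 18843, or 1114 CPM. A cell with 0 UMIs was not shown to lack the transcript, since 0 UMIs at the median depth allow up to 119 CPM in treated and 243 CPM in untreated cells.

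**Figure D2:**
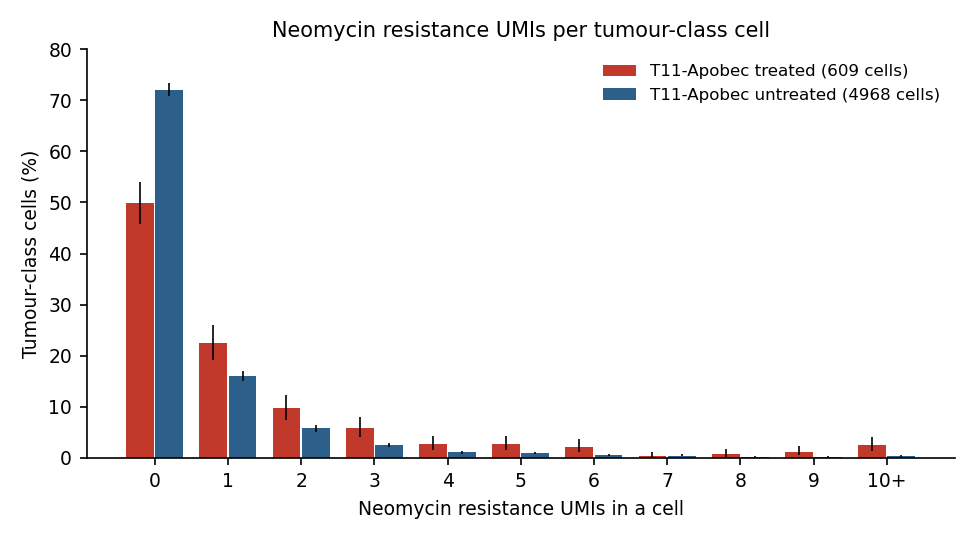
Share of tumour-class cells (%) by the number of neomycin resistance UMIs in a cell, for 609 treated and 4968 untreated T11-Apobec cells; bars show the share and lines its exact 95% interval. Most cells have 0 or 1 UMI and a tail of 15 treated and 17 untreated cells has 10 or more; the libraries differ in depth, at medians of 25160 and 12366 UMIs a cell.

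The spread was wider than that of the genes Trp53 and Hprt. With every cell thinned to 3000 UMIs, the Fano factor, the variance over the mean, which is 1 for pure counting noise, was 1.69 in treated and 1.58 in untreated cells. It was 1.08 and 1.06 for the tumour suppressor gene Trp53, and 0.999 and 1.12 for Hprt, an enzyme of purine salvage that most cells express. For 3 genes induced by low oxygen it was also above that of Trp53 and Hprt, and of these Ndrg1 alone was above the neomycin transcript in both libraries. The Fano factor was 1.64 and 1.63 for Car9 and 2.22 and 2.41 for Ndrg1. It was 1.49 and 1.58 for Bnip3, a protein of the mitochondrial membrane. A wide spread was not limited to these genes, since Cdkn1a, which codes for a cell cycle inhibitor, had 1.87 and 1.58. Snai1 had 1.15 and 1.29.

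The level of the transcript was higher in cells with more RNA of hypoxia genes. When oxygen is scarce the hypoxia-inducible factors (HIF) are stabilised and induce genes for glucose uptake, glycolysis, vessel growth and acid export, and tumour regions far from a vessel are known for this response. A list of 18 HIF target genes was drawn up after the first comparison of cells with and without the transcript had been seen, so what follows describes these cells and is no independent test. Of the 305 treated cells with the transcript, 104 had fewer than 10 UMIs of these genes per 10000 and 92 had 10 to 20. Of the 1386 untreated cells these were 372 and 388, so most cells with the transcript lay in the lower ranges. Tumour-class cells were ordered by the summed UMIs of the 18 genes per 10000 UMIs of the cell.

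The level of the transcript was higher at every step of that order in both libraries, and the intervals of neighbouring ranges did not overlap. In treated cells it went from 18.4 CPM (15.6 to 21.6) in 310 cells with fewer than 10 target UMIs per 10000, through 37.6 CPM at 10 to 20, 105 CPM at 20 to 30, 240 CPM at 30 to 50 and 361 CPM at 50 to 80. It reached 744 CPM (531 to 1013) in the 4 cells with 80 or more. In untreated cells it went from 11.6 CPM (10.5 to 12.7) in 2643 cells through 32.7, 101, 201 and 316 CPM to 498 CPM (427 to 578) in 34 cells. The top range stood above the bottom one by 40.8-fold (27.8 to 57.6) in treated and 43.1-fold (35.9 to 51.4) in untreated cells. Without the treated range of 4 cells, the 22 treated cells at 50 to 80 stood 9.62-fold (7.79 to 11.9) above those at 10 to 20, and in untreated cells that ratio was 9.67-fold (8.55 to 10.9).

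The share of cells with a UMI went from 33.5% to 100% over the ranges in treated and from 14.1% to 100% in untreated cells. Cells with 20 or more target UMIs per 10000 were 19.9% of the treated and 17.2% of the untreated class. They held 66.6% and 63.6% of its neomycin UMIs.

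**Figure D3:**
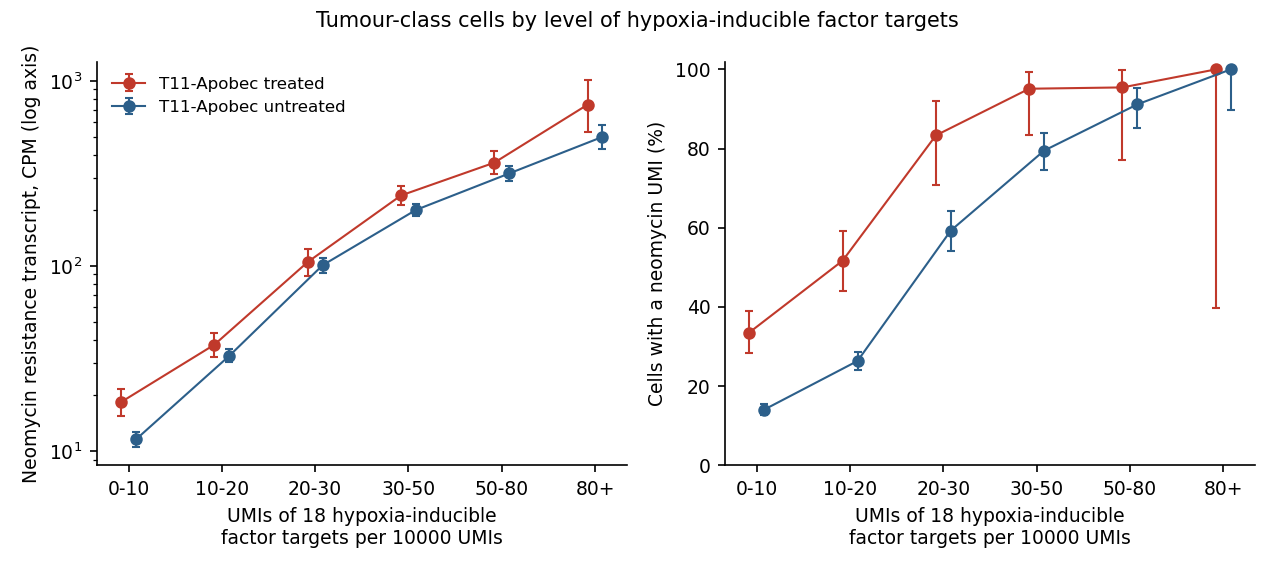
Left, level of the neomycin resistance transcript (CPM, log axis) and right, share of cells with at least 1 neomycin UMI (%), in tumour-class cells ordered by the UMIs of 18 HIF target genes per 10000 UMIs; points are sums or shares over the cells of a range and bars exact 95% intervals. The level goes from 18.4 to 744 CPM in treated and from 11.6 to 498 CPM in untreated cells.

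The relation was present in every quartile of depth. In cells of each quartile by depth, those with 20 or more target UMIs per 10000 stood above the rest by 14.5, 12.2, 5.56 and 6.16-fold in the treated library, from the shallowest quartile to the deepest. In the untreated library the values were 10.8, 11.4, 8.04 and 9.78-fold. Shallow cells had the higher level, 103 CPM in the shallowest against 50.8 CPM in the deepest treated quartile and 60.2 against 30.3 CPM in the untreated ones. Among cells with fewer than 20 target UMIs per 10000 the level was 21.7, 21.5, 25.8 and 28.4 CPM over the treated quartiles and 18.5, 19.7, 18.3 and 17.7 CPM over the untreated ones.

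Within ranges of HIF targets the treated library also had the higher level. The log2 ratio of treated over untreated lay between 0.061 and 0.67 over the 6 ranges, and 3 of its 6 intervals included 0. It was 0.67 (0.39 to 0.94) in the lowest range, 0.59 (0.044 to 1.08) in the highest, and at most 0.26 in the other 4.

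Pgk1, the glycolytic gene whose promoter is used in many selection cassettes, was also read cell by cell. From the lowest to the highest quartile of tumour-class cells by their share of Pgk1 UMIs, the neomycin level was 12.3, 18.6, 37.0 and 172 CPM in treated and 9.83, 14.6, 26.5 and 119 CPM in untreated cells. The top quartile stood above the bottom one by 13.8-fold (10.2 to 19.5) and 12.03-fold (10.2 to 14.4). In cells with fewer than 20 HIF target UMIs per 10000 the ratio was 4.67-fold (3.20 to 6.99) and 4.62-fold (3.79 to 5.69). In untreated cells with 20 or more it was 6.98-fold (3.75 to 17.2), with 8 neomycin UMIs in the 40 cells of the bottom quartile. No treated cell of the bottom quartile had 20 or more. Pgk1 is itself a HIF target, and the promoter of the construct was not tested.

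The level of the transcript was lowest in cells with the highest share of cell cycle UMIs. Cell cycle genes such as Mki67, Top2a and Cdk1, 10 in all, mark cells in or near division. Treated cells with none of their UMIs had 79.3 CPM (68.3 to 91.6) and those with 20 or more per 10000 had 33.0 CPM (25.9 to 41.5). Untreated cells had 64.4 CPM (60.6 to 68.4) and 16.7 CPM (14.4 to 19.3). The ranges between stood at 63.5 and 61.5 CPM in treated cells, with overlapping intervals, and at 44.7 and 31.2 CPM in untreated cells. Cells with no cell cycle UMI were shallower than those with 20 or more per 10000. Median depths were 19262 against 34352 UMIs in treated and 9518.5 against 20070 in untreated cells, and the part of depth was not tested. In cells with fewer than 20 HIF target UMIs per 10000, those with 5 or more cell cycle UMIs per 10000 differed from the others by a log2 ratio of -0.07 (-0.43 to 0.27) in treated and -0.45 (-0.65 to -0.26) in untreated cells. In cells with 20 or more HIF target UMIs per 10000 that ratio was -0.43 (-0.72 to -0.16) in treated and -0.24 (-0.46 to -0.03) in untreated cells.

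The interferon-gamma response, which T cells induce in tumour cells and which 16 genes such as Irf1 and the chemokine Cxcl9 read out, went with a lower level in the treated library. There it was 105 CPM (87.7 to 125) in cells with 2 to 5 response UMIs per 10000 and 33.1 CPM (26.1 to 41.5) in cells with 50 or more, a log2 ratio of -1.67 (-2.10 to -1.25). The same ratio in the untreated library was 0.02 (-1.19 to 0.88), over 1587 and 20 cells, and the difference between the libraries was not tested. For the 67 untreated cells with 20 to 50 response UMIs per 10000 it was -0.77 (-1.60 to -0.12), at 24.3 against 42.6 CPM. In treated cells the HIF targets were lower along the same order, with a median of 12.1 against 8.53 UMIs per 10000. In treated cells with fewer than 20 HIF target UMIs per 10000 the transcript stood at 25.2 CPM with 10 or more response UMIs and at 25.6 CPM with fewer, a log2 ratio of -0.03 (-0.41 to 0.38). With 20 or more HIF target UMIs it stood at 161 CPM and 267 CPM, a log2 ratio of -0.73 (-0.96 to -0.49). In the untreated library these ratios were 0.22 (-0.21 to 0.59) and -0.23 (-0.56 to 0.07).

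**Figure D4:**
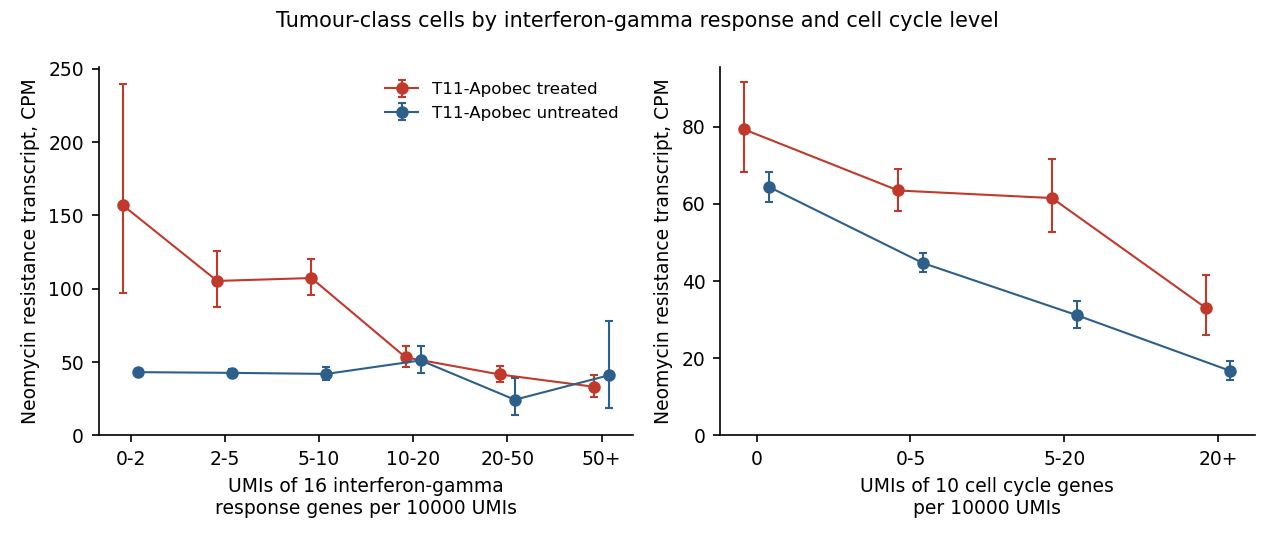
Level of the neomycin resistance transcript (CPM) in tumour-class cells ordered by UMIs of 16 interferon-gamma response genes (left) and 10 cell cycle genes (right) per 10000 UMIs; points are sums over the cells of a range and bars exact Poisson 95% intervals. On the left the treated library goes from 157 CPM in 6 cells to 33.1 CPM in 96 cells, and on the right both libraries are lowest in the range of 20 or more, at 33.0 and 16.7 CPM.

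Gene by gene, tumour-class cells were compared with and without a neomycin UMI after each cell had been thinned to 3000 UMIs. This gave 82 cells with and 526 without in the treated library and 551 and 4374 in the untreated one. Of 8744 measured features in the treated library 15.4% were at least 1.5-fold higher in cells with the transcript and 20.7% at least 1.5-fold lower, and of 11765 features in the untreated library 8.53% and 15.1%. The median log2 ratio over all features was -0.07 and -0.11.

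The 18 HIF targets were listed after a first comparison of this kind had been seen, so their counts are no independent test. Of the 18, 16 were at least 1.5-fold higher in treated and 15 in untreated cells with the transcript. Their medians were 1.48 and 1.62 on the log2 scale, and none was at least 1.5-fold lower. Higher genes with at least 50 UMIs on the higher side were ranked by the end of the interval nearest to 0. Ndrg1, named for its repression by N-myc and induced by low oxygen, ranked first in both libraries, though not by the ratio itself in untreated cells. Ndrg1 was at 346 CPM with and 59.6 CPM without the transcript in treated cells, a log2 ratio of 2.54 (2.10 to 2.97). In untreated cells it was at 311 and 60.8 CPM, 2.35 (2.19 to 2.52), and Adm had a ratio of 2.39 (1.60 to 3.15). Ero1l, an oxidase that helps proteins fold, had ratios of 2.08 (1.53 to 2.61) and 2.29 (2.05 to 2.53). Bnip3 was among the 4 leading genes in treated cells, at 1.98 (1.51 to 2.43), and Ankrd37 among those in untreated cells, at 2.38 (2.11 to 2.64). Slc2a1, the glucose transporter, had ratios of 1.73 and 2.00. The ratio of Vegfa, the vessel growth factor, was 0.87 (-0.18 to 1.74) in treated and 1.56 (1.25 to 1.85) in untreated cells.

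Of 13 glycolysis genes, a list also added after values had been seen, 12 were at least 1.5-fold higher in each library, with medians of 0.81 and 0.91. Pgk1 had log2 ratios of 1.07 (0.93 to 1.20) and 1.27 (1.21 to 1.33), and Gapdh 0.93 and 0.91. Metallothioneins, which bind metals, and stress genes, the third list added in this way, were higher for 5 of 10 measured genes in treated and 9 of 12 in untreated cells. Mt1 was among the 4 leading genes in both libraries by the ranking used for Ndrg1, with ratios of 1.73 (1.52 to 1.94) and 2.08 (2.00 to 2.16). In treated cells other genes of this list had larger ratios on fewer UMIs. Hspb1 was at 3.45 (2.14 to 4.95) with 14 UMIs against 8 in treated cells, and at 1.81 (1.63 to 1.98) in untreated cells. Hmox1 was at 2.35 (1.05 to 3.58) and 1.42 (0.91 to 1.89). The immediate-early genes Fos and Jun did not follow, at -0.05 and -0.10 in treated and -0.29 and -0.02 in untreated cells.

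**Figure D5:**
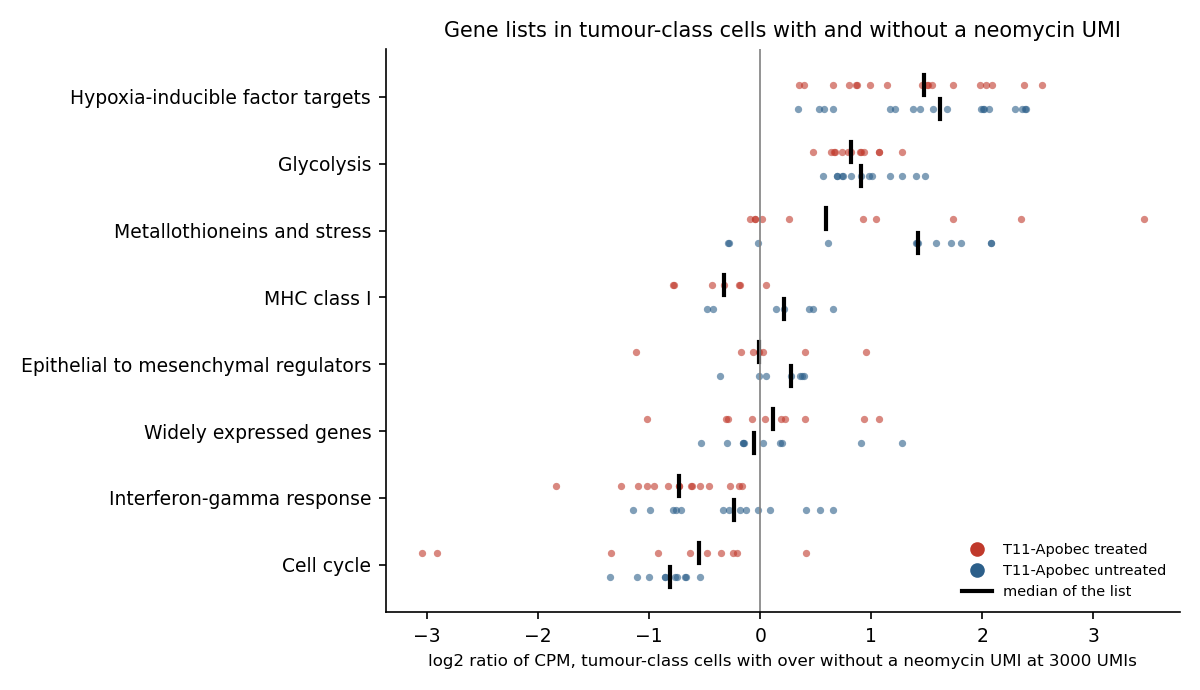
Log2 ratio of CPM in tumour-class cells with over without a neomycin UMI at 3000 UMIs a cell; each point is a gene with at least 10 UMIs, black bars are medians of a list, and 0.5 UMIs were added to both sides, which sets the place of genes with 0 UMIs on 1 side. HIF targets and glycolysis genes lie to the right of 0 in both libraries, with medians of 1.48 and 1.62 and of 0.81 and 0.91. Both of these lists were added after values had been seen. Cell cycle medians lie at -0.56 and -0.81.

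Lower genes were fewer among the lists. Of the 10 cell cycle genes 5 were at least 1.5-fold lower in treated and 9 in untreated cells with the transcript, with medians of -0.56 and -0.81. With Nusap1, at 0 UMIs in treated cells with the transcript, set to 3 UMIs, the treated values were 4 genes and -0.46. Birc5, an inhibitor of cell death that peaks in mitosis, had ratios of -1.34 (-2.25 to -0.64) and -1.01 (-1.30 to -0.74). Of the interferon-gamma response genes 10 of 15 measured were at least 1.5-fold lower in treated cells, with a median of -0.73, and 5 of 14 in untreated cells, with a median of -0.23. With the 1 treated gene at 0 UMIs set to 3 UMIs, the treated values were 9 genes and -0.63.

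The lowest single genes were ranked in each library by the end of the interval nearest to 0, and whether they differ between the libraries was not tested. In treated cells they were Tpx2, a spindle protein, with 1 UMI against 72 (log2 ratio -2.91, -8.81 to -0.96), Ogn, a matrix proteoglycan (-2.50), Smc3, a cohesin subunit (-1.95), and the kinase gene Csnk1g2 (-2.25). In untreated cells Tpx2 was at -0.75 (-1.28 to -0.29) and Csnk1g2 at -0.68 (-1.13 to -0.28). The 4 lowest by that ranking in untreated cells code for matrix or secreted proteins. Eln, which codes for elastin, had 0 UMIs against 113, at least 4.74-fold lower. Gpx3 had 1 UMI against 147 (-3.63, -9.52 to -1.71), Cxcl14 1 against 141 (-3.57, -9.46 to -1.65) and Igfbp7 16 against 600 (-2.20, -3.06 to -1.53). In treated cells Igfbp7 had 1 UMI against 64 (-2.74, -8.64 to -0.79), and the other three had too few UMIs for a ratio. In the untreated tumour class the 6 fibroblast markers summed to 577 CPM and the 6 pericyte markers to 91.3 CPM, and the part of host stromal cells in these 4 genes was not tested.

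Features at least 1.5-fold higher in cells with the transcript and with an interval above 0 numbered 181 in treated and 260 in untreated cells, among 8723 measured in both. They shared 65, which is 35.9% of the treated and 25% of the untreated set. Of the lower features with an interval below 0, 267 and 532, they shared 33, which is 12.4% and 6.20%. Sets of these sizes drawn from the 8723 features would also overlap, and whether the sharing goes beyond that was not tested. The sets rest on unlike numbers of cells with the transcript, 82 treated and 551 untreated.

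Of 5 tumour suppressor and checkpoint genes tied to the models, 1 was at least 1.5-fold higher and 0 lower in each library, with medians of 0.20 over the 4 measured in treated and 0.45 over 5 in untreated cells. This gene was Cdkn1a, a cell cycle inhibitor that stress and p53 induce, at log2 ratios of 2.07 (1.32 to 2.78) and 1.81 (1.49 to 2.11). Trp53 was at 0.47 (-0.10 to 0.99) and 0.45 (0.17 to 0.72). Mdm2, which codes for the ligase that degrades p53, was at -0.33 (-2.15 to 0.87) and 0.55 (0.14 to 0.91). Cdkn2a was at -0.08 (-0.23 to 0.07) and -0.23 (-0.29 to -0.17). Apobec3 was at 0.13 (-1.06 to 1.05) and -0.60 (-1.14 to -0.13). Of 7 regulators of the epithelial to mesenchymal transition 1 was at least 1.5-fold higher and 1 lower in treated cells and 0 in either direction in untreated cells, with medians of -0.01 and 0.28. Of 7 genes of MHC class I antigen presentation, 0 were at least 1.5-fold higher and 2 lower in treated cells, and 1 was higher and 0 lower in untreated cells, with medians of -0.33 and 0.21. Of 10 widely expressed genes 2 were higher in each library, Gapdh and Pgk1, and 1 was lower in treated cells, with medians of 0.12 and -0.06.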

How the data were processed

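The deposited values were raw counts of UMIs per feature and barcode, made with Cell Ranger, whose version the file headers give as 3.0.2, and the build mm10, per the submitters' processing notes, from 10x 3' v2 libraries, per the labels' protocols. How the neomycin feature was added to the reference is not given in the sources used here, and 0 columns were left unmapped. Barcodes needed at least 200 genes and at most 10% mitochondrial UMIs. Scrublet scores (scanpy 1.11.5) ranked doublets; its own threshold was not used, and the highest scores were removed at 0.8% per 1000 barcodes, 301 treated and 852 untreated in T11-Apobec.

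An immune class needed 3 of 6 markers of 1 lineage and fewer than 4 of 12 tumour markers. A stromal or epithelial class needed 3 of 6, or 4 with 4 or more tumour markers. Barcodes of more than 1 class were mixed. These thresholds were set after the data had been seen. The members and lists were chosen with earlier results of these data known.

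CPM is UMIs over the total of the class. Ratios had 0.5 UMIs added. A fold against 0 UMIs, and the level that 0 UMIs allow, used 3 UMIs over the total of the class, library or cell. A feature was measured with at least 10 UMIs. Named genes were list members, the 6 features most like the transcript with at least 50 UMIs, and in each library the 4 highest and 4 lowest with at least 50 UMIs on the higher side, by the interval end nearest 0, without mitochondrial, ribosomal protein, immunoglobulin or T cell receptor genes or unnamed models. The code ran under scipy 1.17.1, numpy 2.4.6 and pandas 2.3.3 in Python 3.11.15, with plots from matplotlib 3.10.9, and the ratio code was tested on simulated data.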

Additional observations from a re-analysis of the deposited data

Results flagged for a closer look

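Barcodes outside the named classes also held the transcript, in T11-Apobec but not in KPB25Luv, where the level was 0. Unassigned barcodes, with too few markers of any class, stood at 5.95 CPM with treatment and at 47.5 CPM without. Of the 88 untreated UMIs, 87 lay in the 154 barcodes with 2 or 3 tumour markers, where Cdkn2a was at 1030 CPM, and 1 lay in the 599 barcodes with 0 or 1. A single unassigned barcode had 32 of these UMIs among 4633 in all, more than any untreated tumour-class cell. Mixed barcodes, with markers of more than 1 class, stood at 27.9 CPM with treatment and at 32.8 CPM without. All 126 treated and 36 untreated UMIs of mixed barcodes lay in those with 4 or more tumour markers, 110 and 54 barcodes.

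H2-D1, a classical MHC class I gene that presents antigen to T cells, went in opposite directions in the libraries. In cells with over those without a neomycin UMI its log2 ratio was -0.33 (-0.45 to -0.21) with treatment and 0.15 (0.07 to 0.22) without. The difference between the libraries was not tested.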

How the results depend on the processing

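No paired analysis was possible because each group was 1 library. The tumour over immune ratio kept its direction and stayed within its interval in each of 6 settings tried, with log2 values of 6.70 to 7.27 with treatment and 5.02 to 5.42 without. The treated over untreated log2 ratio in tumour-class cells (0.51) moved to 0.69 with the stricter marker rule and 0.30 in cells without a cell cycle UMI. Thinned to 1000 and 3000 UMIs the ratio was 0.17 and 0.27, with wide intervals that included 0.51. As a mean over cells of the per-cell share the ratio was 0.46. In rising ranges of interferon-gamma response it was 1.90, 1.31, 1.36, 0.055, 0.73 and -0.38, the last reversed, over 96 treated and 20 untreated cells, and in the first 5 ranges of HIF targets 0.67, 0.20, 0.061, 0.26 and 0.20. Without mitochondrial and ribosomal protein UMIs in the total, the library levels were 37.1 and 51.1 CPM. Fano factors of 1.29 and 1.21 at 1000 UMIs were 1.69 and 1.58 at 3000. Untreated stromal and epithelial classes moved to 6.77 CPM with doublets kept and 0.536 CPM with the stricter rule. Split on all UMIs, the treated features at least 1.5-fold higher in cells with the transcript went from 1348 (15.4% of 8744) to 478. The treated lower ones went from 1807 (20.7%) to 935, and the untreated lower ones from 1776 (15.1% of 11765) to 986. In cells without a cell cycle UMI the treated counts were 749 and 1090. The measured features were set anew in each split, so the counts are not out of the same total and cannot be compared as shares. Through these splits the HIF target medians stayed between 1.23 and 1.60 in treated and 1.46 and 1.54 in untreated cells. That list was drawn up after a first such split had been seen, so its medians are no independent test. Of the 6 features most like the transcript, 3 led with log2(CPM + 1). The causes were not tested. Settings by HIF target range, by Cdkn2a UMIs, without the top 1% of cells, without immune barcodes with tumour markers, and both splits without cycling or top cells were chosen after seeing the data. No group had a replicate, and 3 UMIs a class limited small classes.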
